A study of Xenopus laevis with 74 samples.

Results

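The sox17 genes encode HMG-box transcription factors of the SoxF group and are among the defining regulators of endoderm, the germ layer that forms gut, liver and pancreas. They were taken from the expression tables by symbol alone: every row whose name, without the suffix of its subgenome, is sox17a, sox17b.1 or sox17b.2. This gave 4 genes of 45656 in the table of read counts and 4 of 51061 in the table of TPM, a level scaled for transcript length and library size, and all 4 passed the filter on low counts that left 27424 genes for testing. Xenopus laevis, the African clawed frog, is an allotetraploid whose chromosomes descend from a pair of ancestral species and are marked L (long) and S (short), so each gene can have an L and an S homeolog. The genes are sox17a.L, sox17a.S, a sox17b gene on the L subgenome and sox17b.1.S. The L gene of sox17b is named sox17b.2.L in the counts and sox17b.1.L in the TPM table, and the RefSeq gene list (assembly Xenopus_laevis_v10.1) gives the former as a synonym of the latter. It is written sox17b.L here, and sox17b.1.S is written sox17b.S. In that list sox17a and sox17b are both on chromosome 6L and again both on 6S.

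Explants of the animal pole of the blastula (animal caps) were cut before gastrulation, when their cells can still be directed to any germ layer, and were cultured to stages 9, 10 and 10.5 and on to 11, 12 or 13 of Nieuwkoop and Faber. Wild-type explants left untreated form epidermis, and the other explants were cultured with recombinant protein: Noggin, labelled 100 ng/uL, for neural progenitors, BMP4/7, labelled 20 ng/uL, for ventral mesoderm, and Activin, labelled 160 ng/uL, for endoderm. The methods state another unit for these concentrations. The paper sets stage 9 as time zero and starts treatment there, although the labels give the dose for the stage 9 libraries too. The stage 9 groups are therefore taken as starting points and are not read as responses to the ligands. The 24 groups hold 3 libraries each, except ventral mesoderm at stage 11, which has 5, for 74 libraries in all. Each library is a pool of explants and each day's embryos came from a single frog, so a library is a pool from one clutch and not one embryo. The Activin dose had been chosen by PCR for Sox17 and Brachyury as the lowest that gave endoderm without mesoderm. A rise of sox17 under Activin is therefore not independent of how the endoderm group was made. Ventral mesoderm was sequenced on another instrument than the other 3 lineages, and for every difference that involves ventral mesoderm the sequencer and the lineage cannot be told apart. The methods name a medium low in calcium and magnesium for the Noggin explants only. Noggin and this medium cannot be told apart in any difference that involves neural explants.

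In the embryo, sox17 is switched on in vegetal cells by maternal Vegt and by Nodal ligands, which signal through the same receptors and Smad2 as Activin. Sox17 protein works beside Mix-family homeobox and GATA factors, with which it forms a mutually reinforcing network, and it acts together with beta-catenin on endoderm genes such as foxa1, foxa2 and endodermin. Untreated animal caps do not form endoderm, and sox17 is used as a marker of endoderm in them.

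Total counts ran from 11938338 to 23215739 per library. Marker genes followed the labels at stage 13: the summed TPM of epidermal markers was 2777 to 6788 in epidermal libraries and 97.8 to 121 in endoderm libraries, that of neural markers was 1007 to 2639 in neural libraries, and that of mesoderm markers was 413 to 1217 in ventral mesoderm and 41.4 to 158 in endoderm. Neural markers at stage 13 summed to 91.7 to 354 TPM in epidermal, 209 to 228 in ventral mesoderm and 122 to 356 in endoderm libraries. At stage 11 they did not follow the labels, with 1037 to 1079 TPM in neural and 1110 to 1182 in endoderm libraries. No endoderm marker was part of this check. Ventral mesoderm libraries at stage 13 also held 1404 to 2988 TPM of epidermal markers. The 5 ventral mesoderm libraries of stage 11 were not numbered alike in the 2 tables, as 4 of their TPM columns matched a count column of another number best. CPM, counts scaled to library size with edgeR's normalization factors, are used for the single libraries of that group, and its TPM enter only as a mean. TPM column 4 of that group matched no count column well (best r = 0.492, against at least 0.895 for every other column). That mean may therefore include a library that is not among the counted ones. Because the tissue was sequenced in bulk, more cells that express sox17 and more sox17 RNA per cell cannot be told apart in any result.

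The sox17 genes were low in every lineage at stage 9 and rose in endoderm from stage 10 on. The summed CPM of the 4 genes was highest in endoderm at stage 13 with 1842 ± 250.2 (SD, n = 3). It was lowest in epidermal explants of the same stage with 3.59 ± 2.37 (SD, n = 3). Ordered by their means, the 5 endoderm groups from stage 13 back to stage 10 came at the top, followed by the 5 ventral mesoderm groups of stages 13, 11, 12, 10.5 and 10, and then by the epidermal, neural and stage 9 groups. Endoderm at stage 9 was at rank 22 of 24, above only epidermal explants of stages 12 and 13. Of the neighbours in this order, endoderm at stages 11 and 10.5 and endoderm at stages 10.5 and 10 did not overlap in their libraries, while all other neighbours did.

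**Figure D1:**
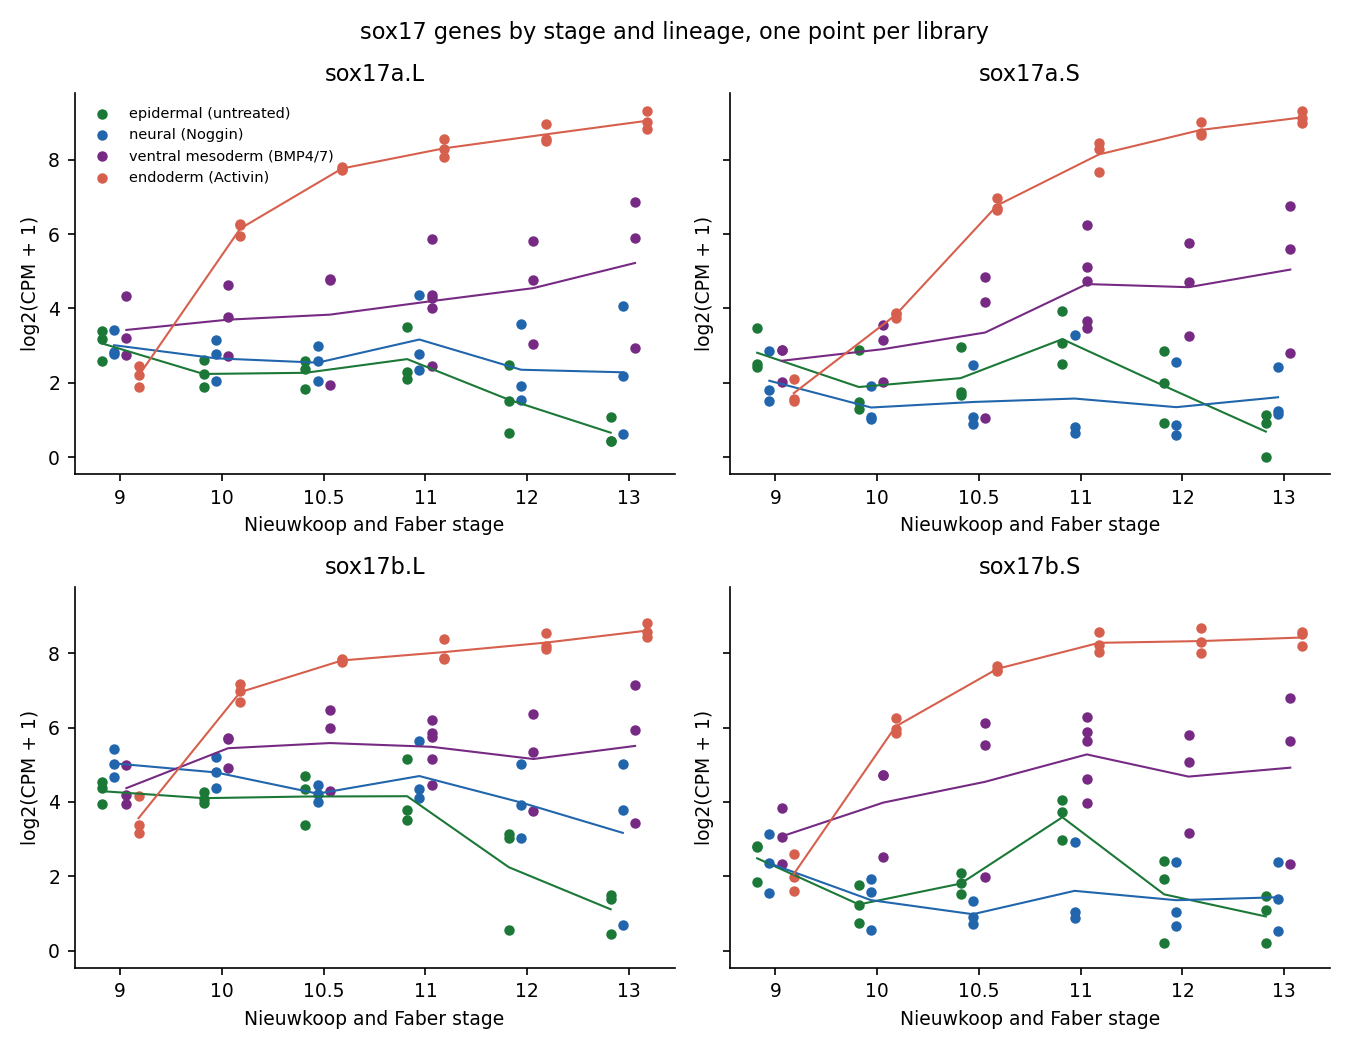
log2(CPM + 1) of sox17a.L, sox17a.S, sox17b.L and sox17b.S against stage, with 1 point per library and lines through the group means. All libraries are low at stage 9, endoderm libraries lie above all others from stage 10.5 on, and ventral mesoderm libraries spread widely below endoderm from then on.

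The 4 genes did not rise alike in endoderm. TPM, which corrects for transcript length, allows their levels to be compared. sox17b.L led at first: it had 25.8, 12.6 and 15.7 TPM in replicates 1, 2 and 3 at stage 9 and 202, 159 and 192 TPM at stage 10. sox17a.L had 6.16, 5.40 and 4.24 TPM at stage 9 and 100.1, 85.5 and 105 TPM at stage 10, and sox17b.S had 8.17, 5.03 and 3.56 TPM and then 112, 91.7 and 98.9 TPM. At stage 10 every library of sox17b.L was thus above every library of the other genes.

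sox17a.S was the late gene of the group. It had 4.62, 2.73 and 5.52 TPM at stage 9 and 17.06, 17.15 and 18.8 TPM at stage 10, below all libraries of the other 3 genes. At stage 10.5 it had 139, 125 and 126 TPM, still below the 238 to 276 TPM of sox17a.L, the 275 to 319 TPM of sox17b.L and the 261 to 265 TPM of sox17b.S. At stage 11 its 225 to 331 TPM overlapped with the values of all 3 others.

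By stage 13 the order had turned. sox17a.S had 423, 505 and 519 TPM and sox17a.L had 381, 512 and 474 TPM, against 319, 396 and 379 TPM of sox17b.L and 280.1, 350.3 and 384 TPM of sox17b.S. Every sox17a.S library lay above all sox17b libraries, whereas the lowest sox17a.L library lay below the highest libraries of both sox17b genes. The mean of sox17b.S was 357 ± 49.8 TPM (SD, n = 3) at stage 11 and 338 ± 53.1 TPM (SD, n = 3) at stage 13, a difference smaller than the spread between replicates. Reads of near-identical homeologs and of sox17a and sox17b can be assigned to the wrong copy, so the split of the total between the 4 genes is less certain than their sum.

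**Figure D2:**
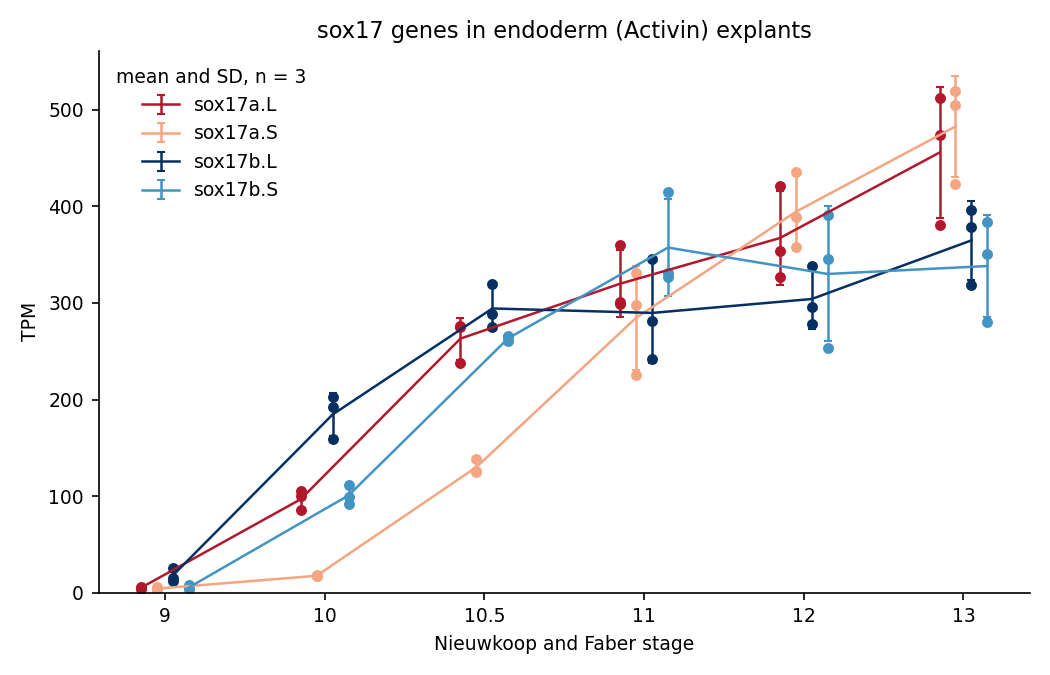
TPM of the sox17 genes in endoderm explants against stage, with 1 point per library, lines through the means and bars of 1 SD (n = 3). sox17b.L is highest at stage 10, sox17a.S starts last with a mean of 17.7 TPM at stage 10, and the sox17a genes end above the means of the sox17b genes at stage 13.

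Endoderm was compared with untreated epidermal explants at each stage to ask when Activin sets the genes apart. With edgeR's quasi-likelihood test and Benjamini-Hochberg adjustment over all genes tested, 19 of 24 tests of a sox17 gene were called at an adjusted p of at most 0.05, and all 19 were higher in endoderm. In this comparison 7.23% of all tests of a gene were called higher. The 19 calls were all kept when each library in turn was left out. From stage 10 to stage 13 the endoderm and epidermal libraries did not overlap for any of the 4 genes, and the share of all genes with higher, non-overlapping endoderm libraries was 15.5%, 16.7%, 17.5%, 22.5% and 27.1% at these 5 stages.

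At stage 10, sox17a.L had 76.5, 60.3 and 74.5 CPM in endoderm and 2.68, 5.07 and 3.67 CPM in epidermal libraries. The difference was 4.19 on the log2 scale (SE 0.27, edgeR adjusted p = 7.3e-05). The SE of a log2 difference is derived here from edgeR's F statistic. sox17b.S was higher by 5.45 (SE 0.42, edgeR adjusted p = 0.00037) and sox17b.L by 2.92 (SE 0.18, edgeR adjusted p = 6.8e-05), sox17b.L being the gene with the most RNA in untreated explants. sox17a.S had 13.4, 12.3 and 13.8 CPM against 1.46, 6.34 and 1.79 CPM, and its difference of 2.02 (SE 0.54) did not pass with an edgeR adjusted p of 0.072. The share of all genes called higher at this stage was 2.51%.

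At stage 13, where 17.9% of all genes were called higher, the differences were largest. sox17a.L had 453, 638 and 517 CPM in endoderm and 0.360, 1.12 and 0.354 CPM in epidermal libraries, a log2 difference of 9.79 (SE 0.43, edgeR adjusted p = 2.1e-06). sox17a.S had 510.0, 632 and 560.0 CPM against 0, 0.883 and 1.2 CPM, a log2 difference of 9.66 (SE 0.68, edgeR adjusted p = 2.5e-05). The sox17b genes differed by 8.28 (sox17b.L, SE 0.49, edgeR adjusted p = 1.1e-05) and 8.41 (sox17b.S, SE 0.59, edgeR adjusted p = 2.5e-05). In each numbered course the epidermal CPM of all 4 genes was lower at stage 13 than at stage 11, while that of the endoderm libraries was higher for both sox17a genes and for sox17b.L.

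At stage 9, when treatment began, the order was the other way round, a difference between groups taken as starting points. sox17a.L had 4.46, 3.63 and 2.72 CPM in endoderm and 5.05, 8.07 and 9.54 CPM in epidermal libraries. sox17a.S had 3.27, 1.84 and 1.94 CPM against 4.39, 10.2 and 4.69 CPM. For these genes no endoderm library reached the lowest epidermal one, and for 11% of all genes the endoderm libraries were lower without overlap at this stage. Neither difference passed: the log2 difference was −1.10 for sox17a.L (SE 0.36, edgeR adjusted p = 0.19) and −1.48 for sox17a.S (SE 0.46, edgeR adjusted p = 0.18). Of all genes, 0.00365% were called lower at stage 9, and DESeq2 called both sox17a genes lower there with adjusted p of 0.044 and 0.033, as it did 4.61% of all genes. For sox17b.L and sox17b.S the libraries overlapped.

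The course within endoderm was followed from each stage to the next. Libraries with the same number in one lineage deviated together from their group means in most pairs and were taken as one time course. Each step was therefore fitted without and with the replicate number as a block. Without the block, 10 of 20 steps were called, all higher, against 4.38% of all gene steps. With the block, 17 of 20 were called higher, against 16.1% of all gene steps. From stage 9 to 10 all 4 genes rose in both fits, by 4.32 on the log2 scale for sox17a.L (SE 0.23, edgeR adjusted p = 8.1e-05), 4.31 for sox17b.S (SE 0.34, edgeR adjusted p = 0.00068), 3.48 for sox17b.L (SE 0.31, edgeR adjusted p = 0.0014) and 2.52 for sox17a.S (SE 0.29, edgeR adjusted p = 0.0036).

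From stage 10 to 10.5 all 4 rose again in both fits, and sox17a.S had the largest step of the 4. Its CPM went from 13.4, 12.3 and 13.8 to 124, 102 and 100.4, a log2 step of 3.05 (SE 0.15, edgeR adjusted p = 7.2e-05). The steps of sox17a.L, sox17b.S and sox17b.L were 1.62, 1.56 and 0.85. From stage 10.5 to 11, sox17a.S rose by 1.36 (SE 0.21, edgeR adjusted p = 0.014) and sox17b.S by 0.67 (SE 0.15, edgeR adjusted p = 0.040), and with the block sox17a.L rose too, by 0.49 (edgeR adjusted p = 0.00095).

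After stage 11 no step was called without the block. With the block, sox17a.L rose by 0.37 to stage 12 and by 0.41 to stage 13, sox17a.S by 0.65 and 0.38, and sox17b.L by 0.25 and 0.36, with edgeR adjusted p between 0.00028 and 0.014. For sox17b.S neither step passed, with 0.04 to stage 12 (edgeR adjusted p = 0.77) and 0.13 to stage 13 (edgeR adjusted p = 0.15). The 3 called genes rose in every one of the 3 numbered time courses at both steps, while sox17b.S had 299, 382 and 262 CPM at stage 11, 258, 409 and 313 CPM at stage 12 and 292, 380.0 and 365 CPM at stage 13.

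From stage 10 on, the mean sums of the sox17 genes in ventral mesoderm explants lay between those of endoderm and of untreated explants, while at stage 9 the mean was higher than both. The libraries of one group differed widely from each other. The summed CPM in replicates 1, 2 and 3 was 35.7, 30.3 and 69.8 at stage 9 and 42.4, 96.8 and 112 at stage 10. At stage 13 it was 26.4, 214 and 473. The library numbered 1 thus ended below that of stage 9, and those numbered 2 and 3 ended above theirs. From stage 10.5 to 11 the numbers were weakly linked in this lineage (r = 0.508, 0.224 and 0.0807 between their deviations from the group means). That each number is a single course from stage 9 to 13 is therefore less certain here.

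At stage 11 the 5 ventral mesoderm libraries had 50.02, 124, 169, 284 and 107 CPM. Replicate 1 had the lowest sum from stage 10 to stage 13, and leaving it out changed calls, as given below for each comparison.

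**Figure D3:**
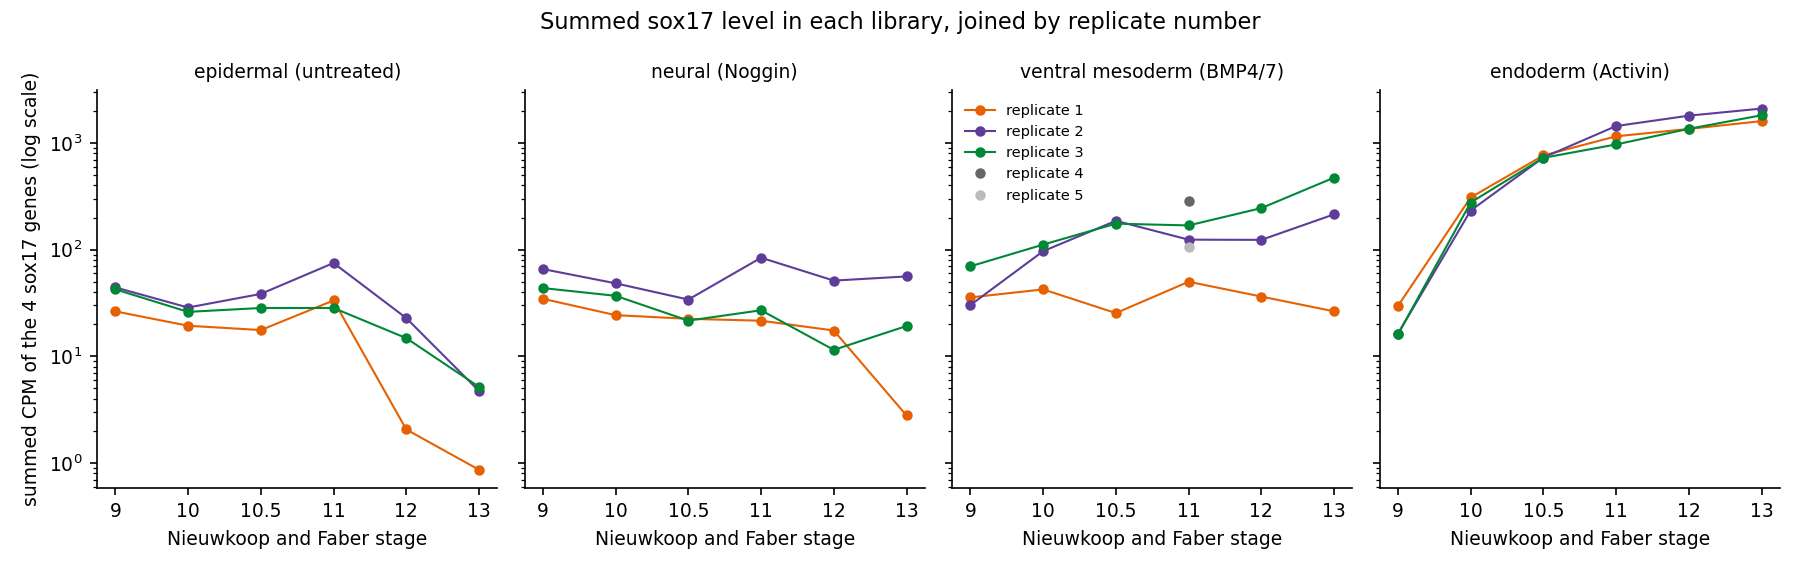
Summed CPM of the 4 sox17 genes (log scale) against stage, with 1 panel per lineage and lines that join libraries of the same replicate number. The 3 endoderm courses run together up to 1604 to 2103 CPM at stage 13, the ventral mesoderm courses part after stage 9, and the epidermal courses end between 0.864 and 5.17 CPM.

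BMP4/7 explants were compared with untreated ones to ask whether BMP4/7 alone is accompanied by sox17 RNA. Of 24 tests 1 was called with edgeR, against 0.264% of all gene tests called higher: sox17a.L at stage 13. It had 6.64, 58.05 and 115 CPM against 0.360, 1.12 and 0.354 CPM, a log2 difference of 6.61 (SE 1.15, edgeR adjusted p = 0.045), and the call was kept without ventral mesoderm replicate 1 and lost without any other of the 6 libraries. At stages 12 and 13 the ventral mesoderm libraries lay above the epidermal ones without overlap for all 4 genes, as did those of 9.24% and 12.2% of all genes. Without ventral mesoderm replicate 1, 6 tests were called, and the share of all genes called in that fit is not given. With all libraries DESeq2 called 12, all higher in ventral mesoderm, against 3.33% of all gene tests in either direction. Of the 24 tests 18 had an unadjusted edgeR p under 0.05, but how many of all genes did was not counted.

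The log2 differences from untreated explants at stage 12 were 3.64 for sox17a.L, 3.08 for sox17a.S, 3.08 for sox17b.L and 3.68 for sox17b.S, with edgeR adjusted p of 0.19, 0.20, 0.33 and 0.24. At stage 10, sox17b.S had 4.75, 25.2 and 25.2 CPM against 0.659, 1.36 and 2.37 CPM (log2 difference 3.64, SE 0.73, edgeR adjusted p = 0.32). sox17b.L had 29.1, 51.1 and 51.9 CPM against 14.5, 15.9 and 18.3 CPM (log2 difference 1.42, SE 0.27, edgeR adjusted p = 0.28). For both genes the lowest ventral mesoderm library was above the highest epidermal one, as for 7.75% of all genes. This held for sox17a.L too, with 5.53, 12.5 and 23.8 CPM against 2.68, 5.07 and 3.67 CPM. DESeq2 called both sox17b genes, with adjusted p of 1e-05 for sox17b.S and 0.00057 for sox17b.L. It also called sox17a.L at this stage (DESeq2 adjusted p = 0.034), against 0.652% of all genes called higher.

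Endoderm and ventral mesoderm were then compared directly, since both were treated with ligands of the TGF-beta family. Of 24 tests 10 were called, all higher in endoderm, against 6.16% of all gene tests. These were sox17b.L at stage 10, all 4 genes at stages 11 and 12 and sox17a.S at stage 13. DESeq2 called 18, of which sox17a.L at stage 9 was lower in endoderm and the others higher, against 15% of all gene tests in either direction, and edgeR called 6 with no filter on low counts. From stage 10 to 13 the libraries did not overlap for any of the 4 genes, and the share of all genes that were higher without overlap was 9.97%, 14.8%, 11.7%, 22.1% and 25.2% at these 5 stages. Leaving out ventral mesoderm replicate 1 gave 19 calls. Leaving out ventral mesoderm replicate 2 or endoderm replicate 3 gave 5 calls and endoderm replicate 2 gave 6. The shares of all genes called in these reduced fits, and in the fit with no filter, are not given.

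At stage 11, sox17b.L had 230.4, 333 and 232 CPM in endoderm and 20.8, 34.5, 56.9, 73.5 and 52.9 CPM in ventral mesoderm (log2 difference 2.47, SE 0.34, edgeR adjusted p = 0.00075). sox17a.L had 311, 376 and 270.3 CPM against 4.46, 15.1, 19.4, 57.85 and 18.6 CPM (log2 difference 3.78, SE 0.65, edgeR adjusted p = 0.0068). The differences of sox17b.S and sox17a.S were 2.81 and 3.20. These 4 calls were kept whichever library was left out.

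At stage 13 the log2 distance was smaller than at stage 12 for all 4 genes. sox17a.S differed by 3.96 at stage 12 (SE 0.66, edgeR adjusted p = 0.0086) and by 3.40 at stage 13 (SE 0.95, edgeR adjusted p = 0.042). sox17a.L differed by 3.81 (SE 0.72) and then by 3.15 (SE 0.93, edgeR adjusted p = 0.051). The change of the distance itself was tested for each step as an interaction of lineage and stage. Without the block edgeR called 0 of 20, where 0.147% of all gene steps were called higher and 0.0766% lower. DESeq2 called 3, against 1.28% of all gene steps in either direction. An unadjusted edgeR p under 0.05 was reached by 4, a share not counted over all genes.

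With the block, 4 of these 20 interactions were called with edgeR. From stage 9 to 10, sox17a.L rose by 3.98 more in endoderm than in ventral mesoderm (adjusted p = 0.0064), sox17b.L by 2.42 more (adjusted p = 0.016) and sox17a.S by 2.13 more (adjusted p = 0.0014). From stage 11 to 12, sox17a.L rose by 0.73 less in endoderm (adjusted p = 0.034). In all, 1.63% of gene steps were called higher and 2.31% lower in this fit. The differences from stage 9 to 10 include unlike starting levels. At stage 9 the mean CPM in endoderm and ventral mesoderm was 3.60 and 10.97 for sox17a.L. It was 2.35 and 5.25 for sox17a.S, and 11.4 and 20.8 for sox17b.L.

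Within ventral mesoderm no step was called without the block, where 0.632% of all gene steps were called higher and 0.523% lower. DESeq2 called 0 of the 20 steps, against 7.86% of all gene steps in either direction. In edgeR 1 of the 20 had an unadjusted p under 0.05, a share not counted over all genes. With the block, which used only replicates 1 to 3, edgeR called 3 steps, against 10.7% of all gene steps called higher and 11.5% lower. Such calls were thus no rarer over all genes. sox17b.L rose from stage 9 to 10 by 1.10 (edgeR adjusted p = 0.0061) and sox17a.L from stage 11 to 12 by 1.02 (edgeR adjusted p = 2.4e-06). At the latter step sox17b.S fell by 0.50 (edgeR adjusted p = 0.0028).

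Epidermal and neural explants were not free of sox17 RNA. At stage 9 the summed CPM was 26.4, 44.2 and 42.4 in epidermal libraries and 34.6, 65.8 and 43.6 in neural ones, and at stage 13 it was 0.864, 4.73 and 5.17 in epidermal libraries and 2.79, 56.1 and 19.2 in neural ones. At stage 10 most of it was sox17b.L, which had a mean of 22.2 ± 2.90 TPM (SD, n = 3) in epidermal explants, against 4.70 TPM of sox17a.L, 5.08 TPM of sox17a.S and 2.09 TPM of sox17b.S. In neural explants of stage 10 the means were 36.5 TPM of sox17b.L and 6.74, 2.47 and 2.53 TPM of sox17a.L, sox17a.S and sox17b.S. Every sox17b.L library of these groups was above every library of the other 3 genes.

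In untreated explants both S homeologs were higher at stage 11 than at stage 10.5 in each of the 3 time courses. sox17b.S had 3.23, 1.87 and 2.50 CPM at stage 10.5, 12.3, 15.5 and 6.94 CPM at stage 11 and 0.159, 4.28 and 2.80 CPM at stage 12. The 3 libraries of stage 11 were above all libraries of both neighbouring stages. The share of all genes with such a gap was not counted. sox17a.S had 2.39, 6.74 and 2.15 CPM at stage 10.5 and 7.45, 14.2 and 4.70 CPM at stage 11, with overlap. sox17a.L had 2.56, 5.02 and 4.21 CPM at stage 10.5, 3.32, 10.3 and 3.93 CPM at stage 11 and 0.555, 4.60 and 1.84 CPM at stage 12, so that its mean was also highest of these stages at stage 11. sox17b.L had 9.46, 24.9 and 19.5 CPM at stage 10.5 and 10.4, 35.0 and 12.8 CPM at stage 11. Whether the steps differed between the genes was not tested.

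Without the block no epidermal step was called with edgeR, where 0.143% of all gene steps were called higher and 0.266% lower. DESeq2 called 3 of these 20 steps, all of them steps of sox17b.S, against 7.12% of all gene steps in either direction. An unadjusted edgeR p under 0.05 was found in 5, a share not counted over all genes. With the block 10 of 20 were called, 2 higher and 8 lower, against 15.4% of all gene steps called higher and 14.7% lower. Calls of a higher level were thus no rarer over all genes. The 2 higher ones were the rise of sox17b.S by 2.15 (edgeR adjusted p = 1.9e-05) and of sox17a.S by 1.26 (edgeR adjusted p = 3.2e-06) from stage 10.5 to 11. The lower ones were sox17a.L, sox17a.S and sox17b.S from stage 9 to 10, sox17a.L and sox17a.S from stage 11 to 12, and sox17a.L, sox17a.S and sox17b.L from stage 12 to 13. At that last step sox17a.S fell by 2.29 (edgeR adjusted p = 0.0093).

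Under Noggin, which blocks BMP ligands, the sox17 genes were not called different from untreated explants at any stage with edgeR. Noggin and the medium named for it cannot be told apart in this comparison. The edgeR count was 0 of 24, against 1.71% of all gene tests called higher and 1.75% lower. DESeq2 called 3, with 1 at stage 11 and 2 at stage 13, against 7.53% of all gene tests in either direction. Of the 24 tests 6 had an unadjusted edgeR p under 0.05, a share not counted over all genes. At stage 11 sox17b.S had 0.830, 6.56 and 1.04 CPM in neural libraries, all below the 6.94 to 15.5 CPM of epidermal ones (log2 difference −2.03, SE 0.74, edgeR adjusted p = 0.20). Without neural replicate 2, which had the highest sums of this lineage at every stage, that difference was called with an edgeR adjusted p of 0.0094. Leaving out neural replicate 1 or neural replicate 2 gave 2 calls each over all stages. The shares of all genes called in these fits are not given. Across 10.8% of all genes, neural libraries of stage 11 lay below the epidermal ones without overlap. Neural libraries were higher without overlap for sox17b.L at stage 10 and sox17a.S at stage 13, and lower for sox17b.S at stage 10.5. For these stages the share of all genes is not given.

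At stage 9, when treatment began, sox17b.L had 24.4, 42.0 and 31.5 CPM in neural and 14.4, 19.9 and 22.3 CPM in epidermal libraries, without overlap (log2 difference 0.82, SE 0.25, edgeR adjusted p = 0.56), and 6.4% of all genes were higher in this way. At stage 13 sox17b.L had 0.610, 31.7 and 12.7 CPM in neural libraries and 0.360, 1.60 and 1.84 CPM in epidermal ones (log2 difference 3.59, SE 1.15, edgeR adjusted p = 0.11). The neural libraries thus differed among themselves by more than the epidermal ones, and 1 of the 3 lay within the epidermal range. Within neural explants no step was called without the block (0.428% of all gene steps called higher and 0.554% lower). DESeq2 called 0, against 3.96% of all gene steps in either direction. Of the 20 steps 1 had an unadjusted edgeR p under 0.05, a share not counted over all genes. With the block edgeR called 5 steps, all lower, against 8.72% of all gene steps. These were sox17a.S and sox17b.S from stage 9 to 10, sox17b.L from stage 10 to 10.5, and sox17a.L and sox17b.L from stage 11 to 12.

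The balance between the genes was followed as log2 ratios of their counts within a library, which no scaling of the library changes. These ratios are not corrected for length, so only their differences are read. In endoderm the ratio of sox17a.L to sox17a.S was 0.44, 0.96 and 0.48 at stage 9, 2.51, 2.29 and 2.43 at stage 10 and −0.17, 0.01 and −0.12 at stage 13. The ratio of sox17b to sox17a, each summed over L and S, was 1.28, 1.14 and 1.09 at stage 10, 0.35, 0.31 and 0.38 at stage 10.5, −0.24, −0.02 and 0.06 at stage 11, −0.53, −0.39 and −0.38 at stage 12 and −0.59, −0.61 and −0.54 at stage 13. No library of a stage reached into the range of the next, and the ratio fell at each step in each of the 3 time courses.

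**Figure D4:**
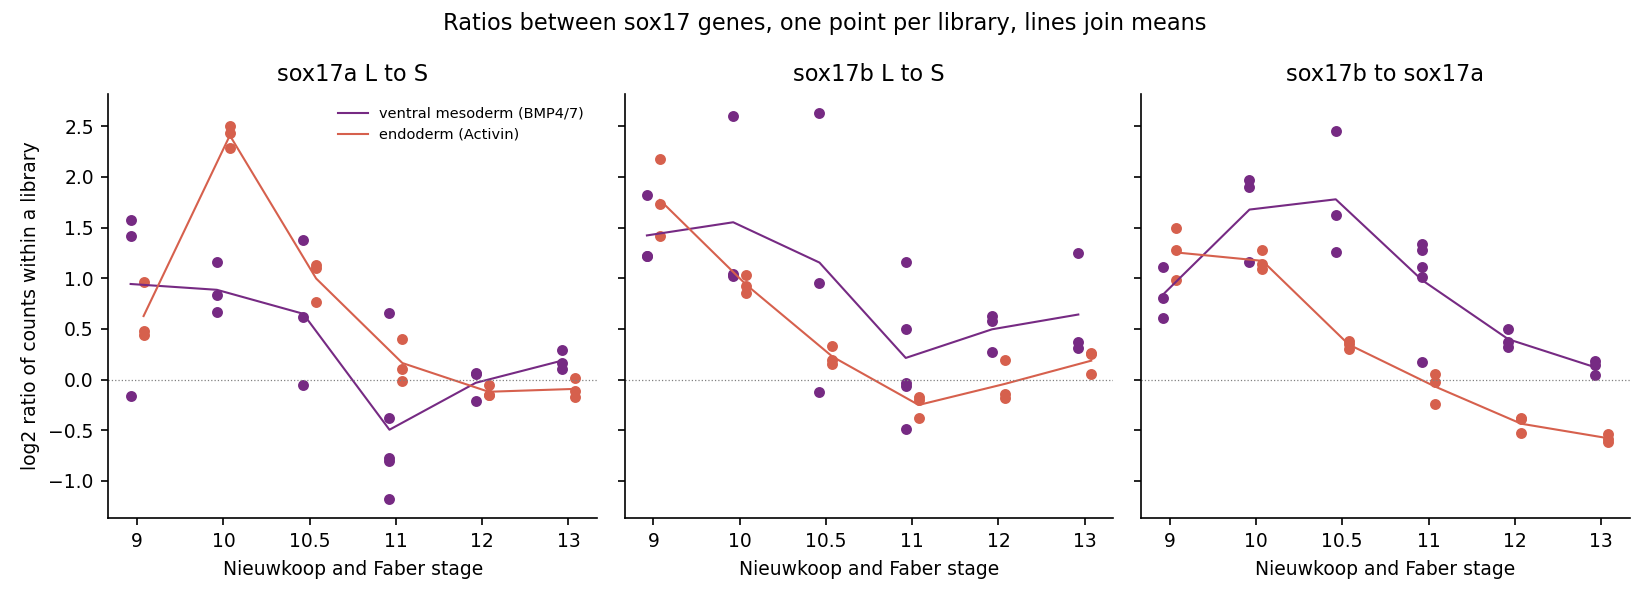
log2 ratios of counts within a library against stage for sox17a.L to sox17a.S, sox17b.L to sox17b.S and sox17b to sox17a, in endoderm and ventral mesoderm, with 1 point per library and lines through the means. The sox17b to sox17a ratio of endoderm falls from a mean of 1.17 at stage 10 to −0.58 at stage 13 and lies below that of ventral mesoderm from stage 10.5 on without overlap.

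Over stages 10 to 13 the ratio of sox17b to sox17a fell with stage in endoderm (Pearson r = −0.90, Spearman rho = −0.98, n = 15 libraries, permutation test, adjusted p = 0.00018 and 6e-05). It also fell in ventral mesoderm (r = −0.83, rho = −0.84, n = 17 libraries, permutation test, adjusted p = 0.00039 and 8e-05). After removal of the 2 libraries most distant from the median stage, r was −0.89 and −0.78. The mean of this ratio was also lower at stage 13 than at stage 10 in untreated explants (0.67 and 1.46) and under Noggin (0.56 and 2.06), where its relation to stage was not tested. The ratio of sox17a.L to sox17a.S fell in endoderm (r = −0.81, rho = −0.91, n = 15, permutation test, adjusted p = 0.00066 and 8e-05, r = −0.83 without 2 libraries). The other 3 relations of the 6 computed did not pass, with r between −0.46 and −0.28. Libraries of one time course are not independent of each other. The permutations ignore this, so these p-values are not reliable and may be too small.

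Between the lineages, the mean log2 ratio of sox17b to sox17a over stages 10 to 13 was 0.09 in endoderm and 0.99 in ventral mesoderm. The difference of −0.90 had an adjusted p of 1.7e-06 in an exact two-sided permutation test within stages (15 and 17 libraries, 3 ratios), and it was kept without each replicate number. The ratio of sox17b.L to sox17b.S was lower in endoderm (difference −0.60, same exact test, adjusted p = 0.0028), a call lost without replicate 1 (−0.27, adjusted p = 0.086). The ratio of sox17a.L to sox17a.S was higher by 0.43 (same exact test, adjusted p = 0.021), a call lost without replicate 1, 2 or 3 (adjusted p = 0.057, 0.14 and 0.12). The permutations treat each stage of a time course as a separate library, so these p-values are too small.

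The genes whose levels were most like those of sox17 were sought among 17418 rows of at least 10 TPM in some group, by Pearson r of log2(TPM + 1) with the summed sox17 TPM over the 24 group means. The groups share libraries of a time course and a sequencer, so r is a description. The mean of ventral mesoderm at stage 11 includes the TPM column that matched no count column well. The 10 highest were lhx1.S (r = 0.93), xenf.L (0.92), LOC108705994 (0.91), aldh1a2.S (0.91), mixer.L (0.91), mixer.S (0.91), stox1.S (0.90), Xelaev18016832m (0.90), xenf (0.90) and clcf1.L (0.90). lhx1 encodes a LIM homeobox factor, aldh1a2 the enzyme that makes retinoic acid from retinal, and mixer a Mix-family homeobox factor. The mean TPM of lhx1.S in endoderm went from 2.91 at stage 9 to 40.0 at stage 10, 382 at stage 12 and 103 at stage 13, while its highest mean in the other lineages was 12.9 in ventral mesoderm at stage 11. The sox17 genes among themselves had r between 0.895 and 0.964 on log2 CPM over the same 24 groups.

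The genes that act upstream of sox17 differed in both directions. As a background for this and the following lists, edgeR called 2.51%, 4.33%, 6.43%, 12.2% and 17.9% of all genes higher in endoderm than in epidermal explants at stages 10, 10.5, 11, 12 and 13, and 2.16%, 3.68%, 4.28%, 10.4% and 15.8% lower. Of 23 tested rows for Nodal ligands, Smads, foxh1, gdf1, eomes and vegt, 10 were higher and 2 lower in endoderm than in epidermal explants at stage 10, and 7 were higher and 6 lower at stage 13. vegt.S, which encodes a T-box activator of endoderm genes, had 548.5 ± 80.8 TPM (SD, n = 3) in endoderm at stage 10, 1195 ± 143 at stage 10.5 and 58.1 ± 10.9 at stage 13. It was called higher at stages 10 to 11 and not after. At stage 12 it had 226 ± 36.8 TPM in endoderm and 16.05 ± 17.2 in epidermal explants (SD, n = 3 each). In epidermal explants of stage 13 it had 18.5 ± 14.2 TPM. The missing calls of vegt.S thus do not mean equal levels. Its homeolog vegt.L had 456 ± 86.2 TPM in endoderm against 6.34 ± 5.73 in epidermal explants at stage 12. At stage 13 these values were 137 ± 5.11 and 9.50 ± 7.32 TPM. eomes.S, another T-box factor, had 231 ± 26.8 TPM at stage 10, 507 ± 19.1 at stage 10.5 and 92.1 ± 13.5 at stage 13 (SD, n = 3), and 0 TPM in each epidermal library of stage 13. It was called at every stage from 10 on. The median of this list at stage 13 was 0.00 on the log2 scale, against 0.12 over all genes.

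The partners in the network, Mix-family and GATA factors, were higher in 10 of 15 rows at stage 10, 13 at stage 10.5, 14 at stages 11 and 12 and 15 at stage 13, with none lower. Their median log2 difference at stage 10 was 6.45, against 0.01 over all genes. mixer.L had 178 ± 20.7 TPM (SD, n = 3) in endoderm at stage 10, 1642 ± 458 at stage 11 and 481 ± 30.8 at stage 13, and between 0.32 and 0.54 TPM on average in epidermal explants. mix1.L had 374.5 ± 35.0 TPM at stage 10, 961 ± 82.6 at stage 10.5 and 51.7 ± 17.1 at stage 13 (SD, n = 3). The mean levels of mixer.L and mix1.L were thus lower at stage 13 than at their highest stage, whereas the sox17 sum was highest at stage 13. In ventral mesoderm 6 of these 15 rows were called higher than in epidermal explants at stage 12 and 1 at stage 13, where 0.39% and 1.15% of all genes were.

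Of the targets of Sox17 listed here, more rows were called at each stage from 10 to 12. Of 6 rows for foxa1, foxa2 and a2m, 1 was higher in endoderm at stage 10, 3 at stage 10.5, 4 at stage 11 and 6 at stages 12 and 13, with none lower. a2m.S, which encodes endodermin, had 7.32 ± 3.79 TPM in endoderm and 17.8 ± 7.81 TPM in epidermal explants at stage 10 (SD, n = 3 each). It had 411 ± 149 TPM in endoderm at stage 11 (log2 difference 3.69, edgeR adjusted p = 0.00023) and 2209 ± 289 TPM at stage 13. foxa2.L, a forkhead factor of endoderm and organizer, had 0 TPM in the endoderm libraries of stage 10 and 208 ± 25.9 TPM at stage 13, against 2.10 ± 1.70 TPM in epidermal explants (SD, n = 3 each). It was called on the counts (log2 difference 10.19, edgeR adjusted p = 6.5e-07), which for this gene gave a larger difference than the TPM did, and the cause was not tested. foxa1.S, another forkhead factor, had 9.17 ± 0.833 TPM in endoderm at stage 10 and 51.5 ± 10.3 TPM at stage 13 (SD, n = 3 each). It was the row already called at stage 10 (log2 difference 3.20, edgeR adjusted p = 0.0038).

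Anterior endoderm and organizer genes were higher in more rows at each stage up to stage 11. Of 9 rows for hhex, cer1, gsc, frzb and dkk1, 4 were higher at stage 10, 7 at stage 10.5 and 9 from stage 11 on. cer1.S, a secreted antagonist of Nodal, BMP and Wnt ligands, had 0.20 ± 0.141 TPM in endoderm at stage 10, 26.6 ± 11.4 at stage 10.5 and 2165 ± 674 at stage 12 (SD, n = 3), while its epidermal means were at most 0.11 TPM. gsc.L, a homeobox repressor of the organizer, had 80.85 ± 16.2 TPM at stage 10, 630.4 ± 96.0 at stage 10.5 and 16.5 ± 19.65 at stage 13 (SD, n = 3).

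The other SoxF genes did not share the course of sox17. Of 4 rows for sox7 and sox18, 1 was higher in endoderm at stages 10 and 10.5, and 1, 2 and 3 were lower at stages 11, 12 and 13. sox18.L was the higher one, with 15.8 ± 2.59 TPM in endoderm against 1.68 ± 0.656 in epidermal explants at stage 10.5 (SD, n = 3 each, log2 difference 2.94, edgeR adjusted p = 0.0014). sox18.S was lower from stage 11 on, with a log2 difference of −4.44 at stage 12 (edgeR adjusted p = 0.0037). sox7.L was lower at stage 13, with 8.08 ± 5.59 TPM against 32.5 ± 10.3 TPM (SD, n = 3 each, log2 difference −2.06, edgeR adjusted p = 0.016).

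Genes of beta-catenin and the TCF factors were called in both directions. Of 7 rows, 2 were lower and none higher at stage 10, and 3 were higher and 2 lower at stage 13. ctnnb1.S and ctnnb1.L, which encode beta-catenin, were not called at any stage, with log2 differences between −0.40 and 0.02 for ctnnb1.S and between −0.53 and 0.30 for ctnnb1.L. tcf7l1.S, a TCF factor that represses Wnt targets, was lower at stages 10, 10.5, 11 and 13, with log2 differences down to −1.83. These lists share the epidermal libraries with the sox17 comparison, and each list's values stand on their own.

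**Figure D5:**
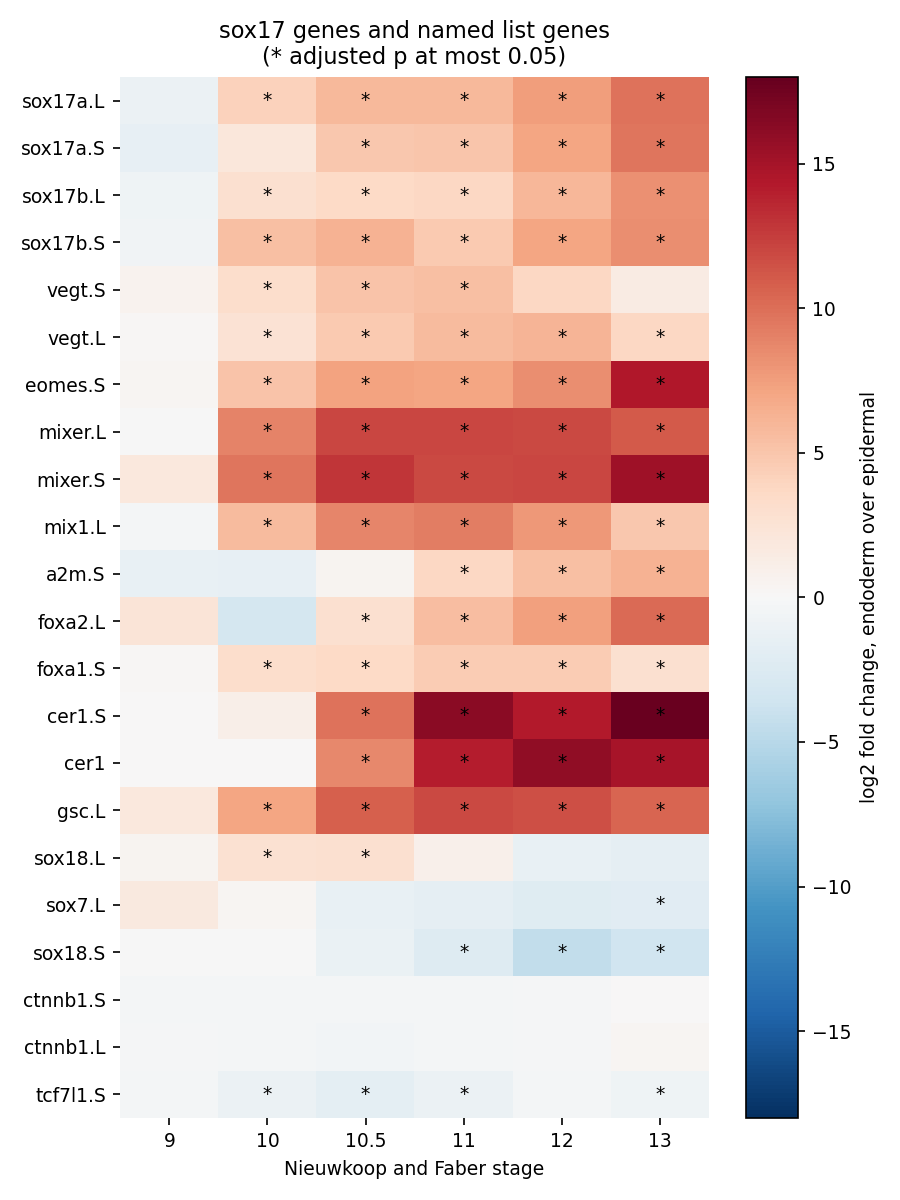
log2 fold change of endoderm over epidermal explants (colour) for the 4 sox17 genes and 18 genes of the lists, by stage, with a star for an adjusted p of at most 0.05 in edgeR. The sox17 genes and the mixer genes are called from stage 10 or 10.5 on, foxa1.S from stage 10 on, a2m.S from stage 11 on, and ctnnb1.S and ctnnb1.L at no stage. The colour of genes without counts in epidermal libraries depends on the small count that the fit adds.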

How the data were processed

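RNA sequencing libraries of 74 pools of animal cap explants were used. The authors aligned reads to the Xenopus laevis v9.2 genome with STAR and deposited raw counts per gene, and they deposited TPM values made with RSEM. The submitters' processing notes also name FastQC. All columns of both tables had a sample (0 without one).

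Counts were tested with edgeR 4.0.16 in R 4.3.3 (TMM factors, robust quasi-likelihood F test, genes of at least 15 counts in at least 1 library, Benjamini-Hochberg adjustment over all genes, threshold 0.05) in 49 comparisons, each fitted on its own groups. edgeR took the place of DESeq2, the tool of the study, which was an alternative (version 1.42.0). Other alternatives were RLE size factors, no filter, one fit of all libraries, a replicate block, leaving out each replicate and a minimum log2 fold change of 1. Fits with the block used replicates 1 to 3 only. The SE of a log2 difference is its absolute value divided by the square root of edgeR's F statistic. It was not estimated directly. Python 3.11.15, numpy 2.4.6, pandas 2.3.3, scipy 1.17.1 and matplotlib 3.10.9 served for the rest. Scripts were tested on simulated data. Ratios had 1 count added to each side, and permutation tests used 100000 resamples unless exact.

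Of 60 pairs of libraries with the same number at successive stages of a lineage, 59 had deviations from the group means that correlated above 0.1 (median r = 0.738, lowest r = 0.0807 in ventral mesoderm), and in 59 the best match had the same number. From stage 10.5 to 11 in ventral mesoderm, r was 0.508, 0.224 and 0.0807 for replicates 1 to 3. There replicate 3 was more like another number (r = 0.214). Since the study's PCR sets a stage against stage 9 of the same time course, the numbers were taken as pairs within a lineage. Nothing states that same-numbered libraries of different lineages share a clutch. The paper describes biological replicates of each lineage as independent experiments but names no clutch for single libraries. The p-values measure the spread between these libraries.

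All sox17 rows were named. Of each gene list, up to 3 genes of the highest mean TPM in endoderm were named, and the 10 rows most like sox17. A gene of the list of Sox17 targets is not reported here. The genes and lists were chosen with earlier results of these data known. The designed ratio of sox17b.2 to sox17b.1 could not be formed, since each table has 1 sox17b row per subgenome.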

Additional observations from a re-analysis of the deposited data

Results flagged for a closer look

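Of 8 measures tested for a single library far from the other 4 in ventral mesoderm at stage 11, where chance gives about 1 in 20, 2 passed the critical value of 0.71 at the 95% level. For sox17a.L, replicate 4 had 57.85 CPM and the gap to the next library was 0.7195 of the range. For the log2 ratio of sox17b to sox17a, replicate 4 was low at 0.18, with a gap of 0.7222 of the range. All 8 measures come from the same 5 libraries, and sox17a.L enters this ratio. The 2 passes are therefore not separate results, and their number cannot be set against the rate of 1 in 20.

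Steps of the sox17 genes differed between endoderm and ventral mesoderm in the fit with the replicate block, by an interaction term in edgeR. From stage 9 to 10 the differences were 3.98 for sox17a.L, 2.13 for sox17a.S and 2.42 for sox17b.L, and from stage 11 to 12 the difference was −0.73 for sox17a.L. None of these passed in edgeR without the block. DESeq2, fitted without the block, called 3 of the 4 genes from stage 9 to 10. The lower endoderm means at stage 9 enter the differences of that step.

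At stage 9 the endoderm libraries were lower without overlap and at the 5 later stages higher without overlap for sox17a.L and sox17a.S against epidermal libraries (log2 −1.10 and −1.48 at stage 9) and for sox17a.L against ventral mesoderm (−1.66 at stage 9). The difference between stages was not tested. Treatment began at stage 9 by the paper's account, so the values of that stage are taken as starting points. Against ventral mesoderm at stage 9, the share of all genes lower in this way was not counted.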

How the results depend on the processing

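No result called in the main fit changed direction. Some steps called only with the replicate block crossed 0 on the log2 scale in fits without it that left a replicate out. These were the sox17a.L step from stage 11 to 12 in ventral mesoderm (−0.48 to 1.01) and the difference of that step between endoderm and ventral mesoderm (−0.71 to 0.87). In neural explants, sox17a.L (−2.02 to 0.11) and sox17b.L (−1.36 to 0.01) did so from stage 11 to 12. The count of sox17 calls for endoderm against epidermal explants was 19 of 24, and it was 22 with DESeq2 and 19 to 20 when each replicate was left out. For endoderm against ventral mesoderm it was 10, and it was 18 with DESeq2, 6 with no filter on low counts, 6 without stage 11 (chosen after seeing the data) and 5 to 19 with a replicate left out. For ventral mesoderm against epidermal explants it was 1, and it was 12 with DESeq2, 0 with no filter, 9 in one fit of all libraries and 0 to 6 with a replicate left out. For neural against epidermal explants it was 0, and it was 3 with DESeq2, 2 in one fit and 0 to 2 with a replicate left out. Endoderm steps gave 4 calls in one fit against 10 (8 to 11 with a replicate left out), epidermal steps 3 with DESeq2 against 0, and the differences of steps 3 with DESeq2 against 0. The cause of these differences was not tested. RLE factors and a minimum log2 fold change of 1 left each count within 1.5 times its value. For fits with no filter, one fit of all libraries and fits with a replicate left out, shares of all genes called are not given. The same holds for DESeq2 over all stages of endoderm against epidermal explants.

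With the replicate block, the counts were 17 for endoderm steps, 3 for ventral mesoderm steps, 10 for epidermal steps, 5 for neural steps and 4 for differences of steps. Between lineages, where the numbers share no stated clutch and deviations of same-numbered libraries correlated above 0.1 in 0 of 18 pairs for endoderm and epidermal, 1 of 18 for endoderm and ventral mesoderm, 2 of 18 for ventral mesoderm and epidermal and 7 of 18 for neural and epidermal libraries, the block gave 19 calls for endoderm against epidermal, 7 for endoderm against ventral mesoderm (without sox17b.L at stages 10 and 12 and sox17a.S at stage 13), 8 for ventral mesoderm against epidermal and 1 for neural against epidermal explants. The shares of all genes called in these block fits between lineages are not given.

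With a replicate number left out, the difference of log2 ratios between endoderm and ventral mesoderm was 0.33 to 0.49 for sox17a.L to sox17a.S, −0.86 to −0.27 for sox17b.L to sox17b.S and −0.98 to −0.78 for sox17b to sox17a. Of the 10 genes most like sox17, 7 were shared with a pseudocount of 0.1, 6 with one of 10 and 10 with no minimum TPM. With 3 libraries per group, a depth of a few counts for sox17 in epidermal libraries of stage 13 limits those fold changes.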
